A study of Mus musculus with 6 samples.

Results

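The genes described here write, remove or interpret repressive chromatin marks in blood stem cells. They are 3 DNA methyltransferases (Dnmt1, Dnmt3a, Dnmt3b), 3 TET enzymes (Tet1, Tet2, Tet3) and 4 Polycomb genes (Ezh1, Ezh2, Bmi1, Asxl1). Every non-control probe carrying one of these 10 gene names in the scanner files was taken, which gave 10 of the 34821 gene names and 22 of the 55681 probes on the array. RNA came from freshly sorted LSK cells, which lack lineage markers, carry Sca-1 and c-Kit, and include the stem cells and multipotent progenitors of mouse bone marrow. The groups were 3 NIKaly/aly samples, numbered 2, 4 and 6, and 3 wild-type samples, numbered 1, 3 and 5. NIKaly/aly mice carry the aly allele of Map3k14, a point mutation that disables NIK, a kinase upstream of the alternative NF-kB pathway. The allele is present in all tissues of these mice, so the mutant LSK cells also came from a mutant host. No treatment, age or strain is given in the sources used here, and nothing in them says whether each sample came from a separate animal. The p-values therefore measure only how far these samples spread, and that spread may be technical.

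DNA methyltransferases place methyl groups on cytosines in CpG pairs. Dnmt1 copies the marks at replication, whereas Dnmt3a and Dnmt3b set new ones. TET enzymes oxidise the methylated base and so start its removal. Ezh1 and Ezh2 are alternative catalytic subunits of Polycomb repressive complex 2 (PRC2), which methylates lysine 27 of histone H3. Bmi1 belongs to Polycomb repressive complex 1 (PRC1), which marks histone H2A with ubiquitin, and Asxl1 is the partner of the deubiquitinase that takes this mark off. In mouse bone marrow, Bmi1 is needed for stem cell self-renewal, and loss of Dnmt3a or Tet2 lets stem cells expand.

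The array reads each transcript through designed 60-base oligonucleotides, and the probes of 1 gene can sit far apart along its transcript. Of these, 7 probes of Dnmt1, Tet1, Tet3 and Ezh1 are shown, since the results below are given by probe. They were placed upstream of the 3′ untranslated region from background knowledge of these genes and not from an annotation. They are written in lower case in the sense direction, 5′ to 3′, with no part marked. Probes of a gene are numbered from the brightest.
Dnmt1 probe 1: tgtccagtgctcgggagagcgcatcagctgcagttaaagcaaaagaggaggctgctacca
Tet1 probe 2: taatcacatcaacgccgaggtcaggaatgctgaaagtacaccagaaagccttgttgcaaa
Tet1 probe 3: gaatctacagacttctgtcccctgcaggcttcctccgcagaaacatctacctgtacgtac
Tet3 probe 1: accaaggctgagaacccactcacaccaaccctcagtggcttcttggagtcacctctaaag
Tet3 probe 2: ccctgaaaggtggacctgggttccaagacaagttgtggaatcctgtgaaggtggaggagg
Tet3 probe 3: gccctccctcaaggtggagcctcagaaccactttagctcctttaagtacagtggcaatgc
Ezh1 probe 3: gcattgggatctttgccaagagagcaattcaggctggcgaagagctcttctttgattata
On the mm9 build the Dnmt1 probe spans chr9:20711973-20712341 on the minus strand, 369 bases for a 60-base probe, so an intron lies within the span. Tet1 probes 2 and 3 lie at chr10:62301856-62301915 and chr10:62276042-62276101, at position 3128 of one Tet1 transcript entry and position 5298 of another. Tet3 probes 1, 2 and 3 lie at positions 2202, 4483 and 3494, at chr6:83352743-83352802, chr6:83318731-83318790 and chr6:83319720-83319779. Ezh1 probe 3 lies at position 2248, at chr11:101054534-101054593. All of these transcripts run on the minus strand.

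All 6 arrays came from 1 slide and 1 scan, and 33.1% to 45.6% of each array's 59305 non-control spots stood well above background. The quality entry in the file headers read "Evaluate" for wild type 1 and NIKaly/aly 6 and "InRange" for the other arrays. Those 2 arrays also had the lowest 75th percentiles of signal. The 75th percentile of the signal was 50.8 to 201 on NIKaly/aly arrays and 47.0 to 225 on wild-type arrays. Values are given as log2 signal over the array's 75th percentile, so 0 is the percentile itself. Arrays with consecutive numbers resembled each other: over the 15684 genes tested, Pearson's r was 0.975 to 0.989 within these 3 pairs and 0.929 to 0.975 between all other arrays, a description across genes. Map3k14 differed by 0.31 ± 0.49 (SE) by its brighter probe, and a point mutation need not change the transcript level, so this does not check the labels. All 16 LSK markers were well above background on at least 1 array. Their summed linear signal, in multiples of the 75th percentile, was 594 to 617 on NIKaly/aly arrays and 482 to 548 on wild-type arrays. Of 15 tested, 11 read higher and 4 lower in NIKaly/aly, and none passed. An unadjusted p under 0.05 in limma was reached by 1 of the 15, Procr (0.78 ± 0.28), where 1.33% of all genes did. Groups did not overlap for 2 of the 15, where they did not for 716 of the 15684 genes tested. Ly6a read lower in NIKaly/aly (-0.68 ± 0.46). Markers of mature cells were also present on both kinds of array. Mature neutrophil markers, all 12 above background on every array, summed to 1286 to 4722 on NIKaly/aly and 1190.0 to 7935 on wild-type arrays. Macrophage and dendritic cell markers summed to 97.6 to 204 on NIKaly/aly and 151 to 248 on wild-type arrays, and all 10 tested read lower in NIKaly/aly (median -1.03). Of these 10, 4 had an unadjusted p under 0.05 in limma, where 1.33% of all genes did. Groups did not overlap for 4 of the 10, and for 716 of the 15684 genes tested. The tested markers of B cells (13 of 13, median -0.67), neutrophils (12 of 12), erythroid cells (8 of 8) and T and NK cells (6 of 9) also read lower, and none of these markers passed. Their part in the members' values was not tested.

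No member passed the test between genotypes. Of the 22 probes, 21 were well above background on at least 3 arrays and were tested, 17 of them on all 6. None passed in limma (all 21 at a Benjamini-Hochberg adjusted p = 0.99998), against 0% of the 21220 probes tested. None reached an unadjusted p under 0.05, where 1.28% of all probes did, and for none did the genotypes fail to overlap, where 4.57% of all probes did. A change of 2-fold or more that also had p under 0.05 before adjustment was seen for 0 member probes and 0.886% of all probes. Of the 21, 10 read higher and 11 lower in NIKaly/aly, and by brightest probe 6 of the 10 genes read higher, as 48.5% of all genes did. The median difference over the 21 was -0.0051, against -0.0089 over all probes tested. In bulk RNA, fewer cells of a type and less RNA per cell cannot be told apart.

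**Figure D1:**
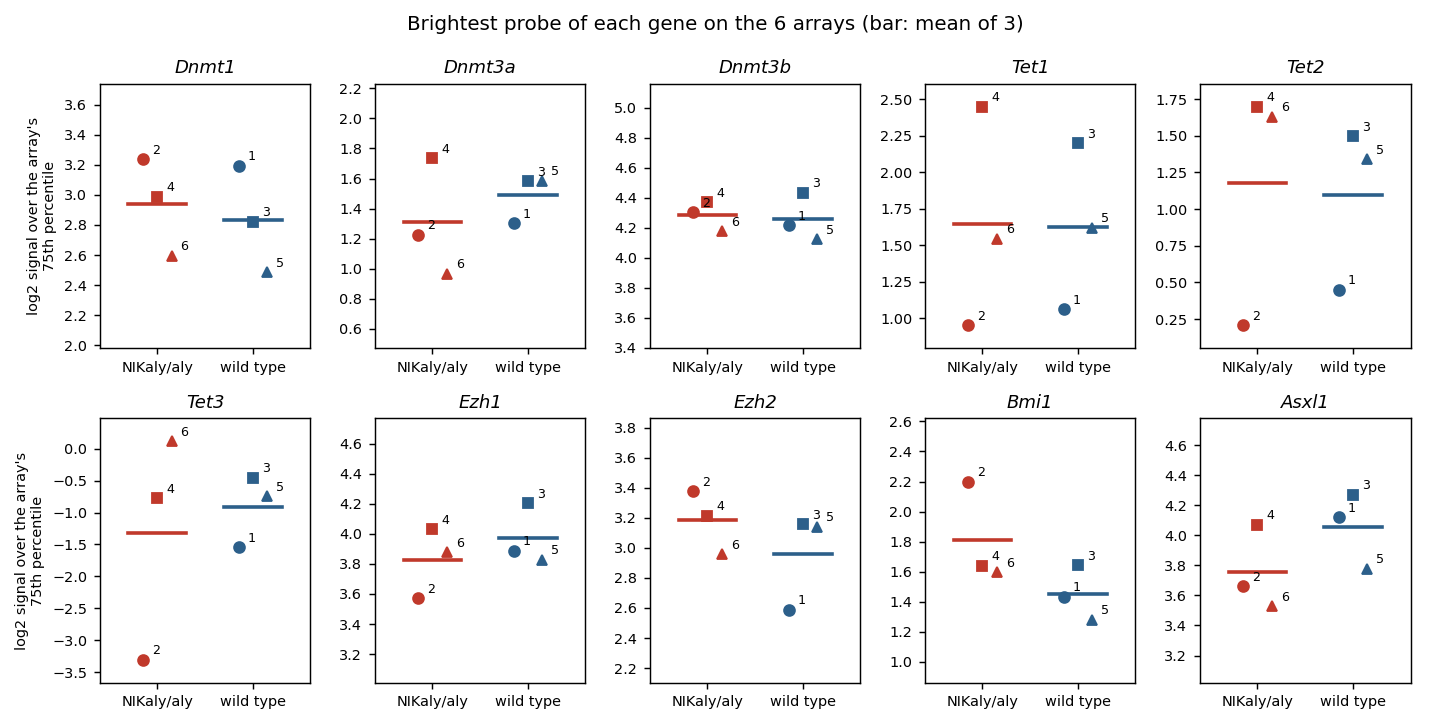
Log2 signal over the array's 75th percentile for the brightest probe of each of the 10 genes, with NIKaly/aly samples (red) left of wild-type samples (blue), each point labelled with its sample number and each bar the mean of 3. Vertical axes differ between panels; the 2 genotypes overlap in all 10 panels, and Tet1 and Tet2 are lowest in samples 1 and 2.

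Dnmt1, the maintenance methyltransferase, read 3.24, 2.99 and 2.60 in NIKaly/aly 2, 4 and 6 and 3.19, 2.82 and 2.48 in wild type 1, 3 and 5. The genotypes interleaved, and the mutant sample was the higher of each consecutive pair. The difference was 0.11 ± 0.31 (SE, n = 3 per genotype, limma), with a 95% interval of -0.60 to 0.81, or 0.66-fold to 1.76-fold. Dnmt3a, whose single probe lies at position 9611 of the transcript (chr12:3914320-3914379, plus strand), read 1.23, 1.74 and 0.97 in NIKaly/aly and 1.30, 1.58 and 1.58 in wild type. NIKaly/aly held both the highest and the lowest Dnmt3a value. The difference was -0.18 ± 0.29 (interval -0.86 to 0.50). NIKaly/aly 6 minus wild type 5 was -0.62, while within slide row 1 (samples 1 to 4) the difference was 0.039.

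Dnmt3b varied least. Its brightest probe (chr2:153513403-153513462, plus strand) read 4.30, 4.37 and 4.18 in NIKaly/aly, against 4.22, 4.43 and 4.12 in wild type. All 6 arrays lay within 0.31 log2 units. The difference was 0.024 ± 0.26, with an interval of -0.57 to 0.62, so differences of more than 1.54-fold up or below 0.67-fold lie outside it. Probe 2 differed by -0.018 and probe 3 by 0.045, and all 3 were well above background on every array. The 3 probes thus gave differences within 0.1 of each other and of 0.

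Tet1 and Tet2 varied far more between arrays than between genotypes. Tet1 probe 1 (position 6892, chr10:62274448-62274507) read 0.95, 2.45 and 1.55 in NIKaly/aly, against 1.06, 2.20 and 1.62 in wild type. Tet2 probe 1 (position 9011, chr3:133126751-133126810) read 0.21, 1.70 and 1.63 in NIKaly/aly, against 0.45, 1.50 and 1.34 in wild type. In both genotypes the first sample listed, 2 or 1, was the lowest. The genotype differences were 0.022 ± 0.45 for Tet1 (interval -1.02 to 1.06) and 0.084 ± 0.48 for Tet2 (interval -1.01 to 1.18); both intervals reach 2-fold in either direction. Tet1 probes 2 and 3 differed by 0.071 and -0.17. Tet2 probe 3, at position 8857 of the same transcript as probe 1, differed by -0.0051.

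Tet2 probe 2 belongs to a separate entry in the files, a cDNA from CD11-positive dendritic cells whose probe sits at chr3:133176421-133176479. It read -0.60, -0.046 and 0.36 in NIKaly/aly and -1.37, -0.082 and -0.042 in wild type. The mutant sample was higher in each of the 3 pairs, by 0.76, 0.037 and 0.40. The difference of 0.40 ± 0.46 did not pass.

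Tet3 lay close to background. Its 3 probes were not well above background on NIKaly/aly 2 or wild type 1, and probes 2 and 3 not on NIKaly/aly 6. Probe 1 read -3.30, -0.77 and 0.11 in NIKaly/aly, against -1.54, -0.46 and -0.75 in wild type. The lowest value of each genotype was not well above background, so the low end of each range is uncertain. The difference was -0.41 ± 0.82, and without samples 1 and 2 it was 0.27. Probes 2 and 3 differed by -0.68 ± 0.71 and -0.16 ± 0.53. All 3 differences depended on NIKaly/aly 2: without it they were 0.59, 0.11 and 0.21. Probe 3 also changed sign without wild type 5, to 0.050.

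**Figure D2:**
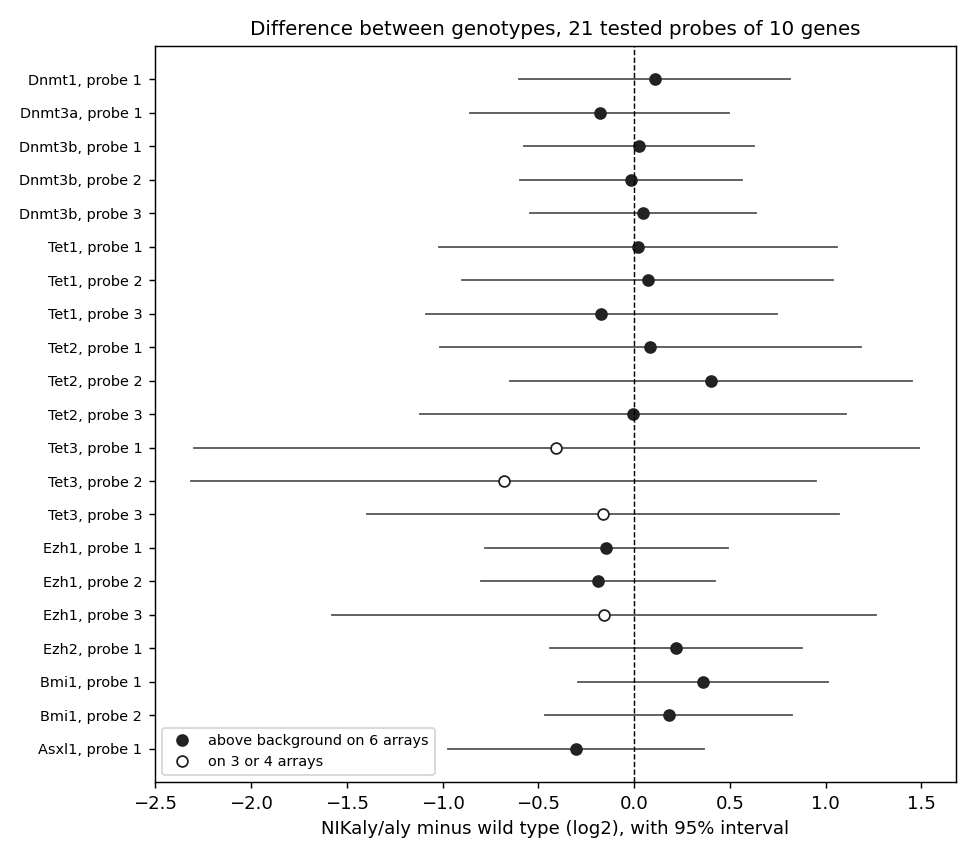
NIKaly/aly minus wild type on the log2 scale for the 21 tested probes, with 95% intervals from limma; filled points were well above background on all 6 arrays, open points on 3 or 4. All 21 intervals include 0, and the narrowest belong to Dnmt3b and the widest to Tet3.

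Ezh1 and Ezh2, the alternative PRC2 enzymes, read in opposite directions and neither passed. Ezh1 probe 1 (position 4133, chr11:101052430-101052489) read 3.57, 4.03 and 3.88 in NIKaly/aly and 3.89, 4.204 and 3.83 in wild type. Its difference was -0.14 ± 0.28, and probes 2 and 3 differed by -0.19 ± 0.27 and -0.16 ± 0.62. Ezh2 (position 2558, chr6:47480307-47480366) read 3.38, 3.21 and 2.96 in NIKaly/aly and 2.59, 3.16 and 3.14 in wild type. Wild type 1 was the low value, and the difference of 0.22 ± 0.29 became -0.063 without samples 1 and 2. Ezh1 probe 3, the dim one shown above, lost the call of above background on NIKaly/aly 6 and wild type 1. Ezh1 probe 4 (chr11:101058722-101058781), which belongs to another transcript entry, was above background on wild type 3 alone and was not tested. It read -4.72, -3.49 and -3.43 in NIKaly/aly, against -3.82, -2.81 and -3.65 in wild type.

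A difference of 2 genes within an array does not depend on the constant by which that array is scaled. Ezh1 minus Ezh2 was 0.20, 0.82 and 0.92 in NIKaly/aly 2, 4 and 6 and 1.30, 1.05 and 0.69 in wild type 1, 3 and 5. The mean was 0.65 ± 0.39 in NIKaly/aly and 1.01 ± 0.31 in wild type (SD, n = 3 each), and the groups overlapped. Dnmt3a minus Dnmt1 averaged -1.63 ± 0.38 in NIKaly/aly and -1.34 ± 0.50 in wild type. Tet2 minus Tet3 averaged 2.50 ± 0.999 in NIKaly/aly and 2.01 ± 0.070 in wild type, with Tet3 not well above background on NIKaly/aly 2 and wild type 1. The genotype differences were -0.37, -0.29 and 0.49. Leaving out 1 array they ran from -0.53 to -0.14, from -0.56 to -0.065 and from -0.017 to 0.98, and Tet2 minus Tet3 was -0.017 without NIKaly/aly 2 and 0.25 with normexp. Only shifts between samples can be read from these values, since probes of different genes differ in brightness, and all 3 pairs of groups overlapped.

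Bmi1, the PRC1 subunit tied to self-renewal, read higher in NIKaly/aly by both probes. Probe 1 (position 2868, chr2:18607531-18607590) read 2.20, 1.64 and 1.60 in NIKaly/aly, against 1.43, 1.64 and 1.28 in wild type. NIKaly/aly 2 was the highest array, while samples 3 and 4 were equal to 2 decimals. The difference was 0.36 ± 0.28 (interval -0.29 to 1.01), the smallest unadjusted p among the members (0.24), and 0.17 without NIKaly/aly 2. Probe 2, at position 3324, differed by 0.18 ± 0.28. With array column as a random block, a setting under which 1876 probes passed, probe 1 alone among the members passed (limma, adjusted p = 0.031, against 0.99998 without it). Each array column held samples of 1 genotype only, so genotypes were not compared within a column.

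Asxl1 (position 6614, chr2:153229684-153229743) read lower in NIKaly/aly in each pair. It read 3.66, 4.07 and 3.53 in NIKaly/aly, against 4.12, 4.27 and 3.78 in wild type, so the groups overlapped. The pairs differed by -0.46, -0.20 and -0.25. The difference was -0.30 ± 0.29 (interval -0.97 to 0.36). With the consecutive pairs as a block it was -0.30 ± 0.12, with an unadjusted p = 0.042 in limma and an adjusted p = 0.69. With that block 0.00943% of all probes passed and no member did. With it, 7.05% of all probes had an unadjusted p under 0.05, and Asxl1 was the 1 of 21 member probes to do so. The same direction in all 3 pairs was found for 5 of the 21 member probes and for 29.4% of all probes.

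The largest variation among the members followed the sample numbers. Samples 1 and 2 both lay below the other 4 arrays for 9 of 21 member probes, against 18.6% of all probes tested. These 9 were repeat readings of only 3 genes, Tet1, Tet2 and Tet3, and Tet3 was not well above background on samples 1 and 2. By brightest probe, 16.8% of all genes lay below in both samples. The count of member probes depended on scaling. It was 17 of 21 (34.7% of all probes) with the percentile over probes above background on all arrays. With quantile normalization it was 14 (23.5%), with median scaling 8 (14%) and with normexp 6 (11.2%). Other members thus joined the TET probes with that percentile and with quantile normalization. Samples 3 and 4 lay above the others for 6 member probes (10.2% of all probes) and below for 0 (13%). Samples 5 and 6 lay above for 3 (8.51%) and below for 3 (20.8%). Tet1 probe 2 read 0.33 and 0.55 in NIKaly/aly 2 and wild type 1, and 1.26 to 1.61 on the other arrays. Tet1 probe 3 read -0.46 and -0.26 there, and 0.47 to 0.66 on the others. Tet2 probe 3 read -1.25 and -1.15, and -0.18 to 0.084 on the others. Each TET gene was thus low in 1 sample of each genotype. Tet1 probe 1 was on average 0.95 lower, and Tet2 probe 1 was 1.21 lower, in samples 1 and 2 than in the other 4.

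**Figure D3:**
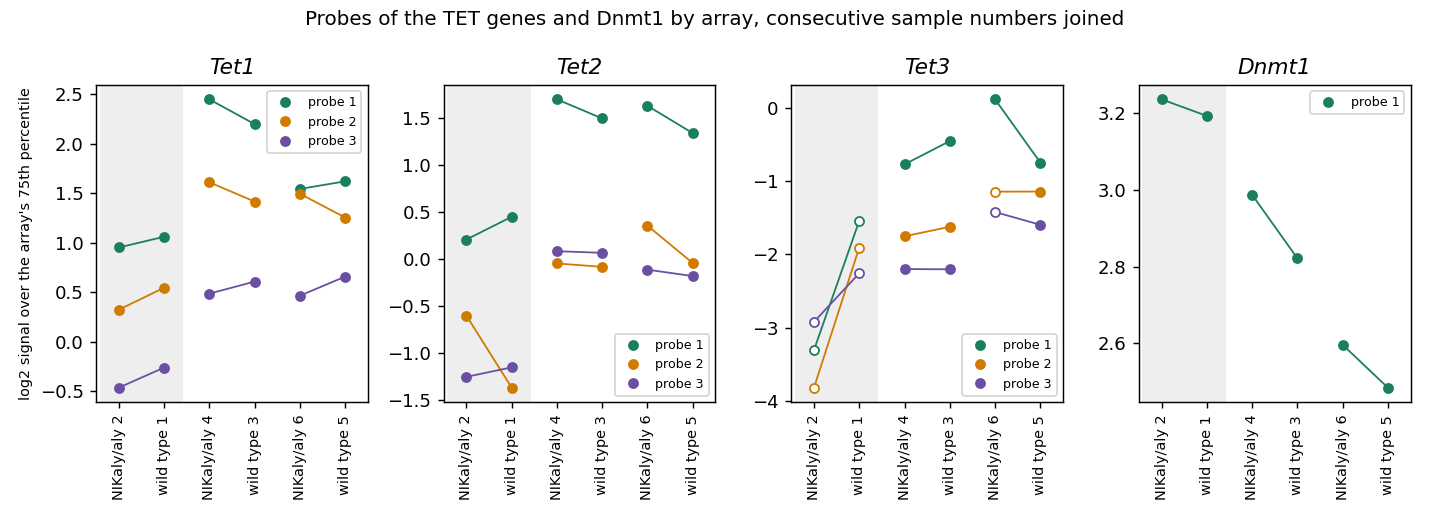
Log2 signal over the array's 75th percentile for each probe of Tet1, Tet2, Tet3 and Dnmt1 on the 6 arrays, with consecutive sample numbers joined and samples 2 and 1 shaded; open points were not well above background. All 9 TET probes are lowest in samples 1 and 2, where the single Dnmt1 probe is highest.

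The TET pattern was picked after the values had been seen. It was then computed on the same 6 arrays under 5 other scalings or background corrections, which add no independent samples. All 6 Tet1 and Tet2 probes stayed lowest in samples 1 and 2 with normexp, with quantile normalization and with the percentile over probes above background on all arrays, and 5 of 6 with median scaling and in the authors' deposited table. The drop of Tet1 probe 1 ranged between -1.42 and -0.88 over these settings. The Tet3 probes, which were not well above background on samples 1 and 2, were lowest there in 0 of 3 with normexp. Dnmt1 was the only member probe higher in samples 1 and 2 than on all other arrays, by 0.49, where 37.3% of all probes were. With the percentile over probes above background on all arrays this shift was 0.021.

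Other genes moved with sample numbers too. Of 22 tested genes of S phase and mitosis, 20 were higher in both samples 1 and 2 than on all other arrays, and 1 was lower, where 39.8% of the 15684 genes tested were higher. In the direction of the TET probes, 10 of 17 Trithorax and H3K27 demethylase genes and 6 of 15 LSK markers were lower in both samples than on all other arrays, where 16.8% of all genes were. Summed linear signal of the S phase and mitosis list was 1085 in NIKaly/aly 2 and 1068 in wild type 1, and 573 to 619 on the other arrays. Uhrf1, which guides Dnmt1 to newly copied DNA, read 6.08 and 6.20 in samples 2 and 1 and 5.15 to 5.43 on the others. Erythroid markers summed to 950.4 and 2603 there and to 18.4 to 131 on the other arrays, with 10 of 12 above background on both. Neutrophil markers summed to 4722 and 7935 there and to 1190.0 to 4153 elsewhere. These counts and levels were computed with the main 75th percentile scaling alone, and the counts can depend on it. With the percentile over probes above background on all arrays, samples 1 and 2 lay below the others for 34.7% of all probes, against 18.6%. The part of cycling or mature cells in the TET values was not tested.

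Genes that work with the members did not pass either. Of 36 tested DNA methylation partners, 21 read higher and 15 lower in NIKaly/aly (median 0.015, against -0.0081 over all genes), and none passed in limma, as 0% of the 15684 genes did. An unadjusted p under 0.05 was reached by none of the 36, against the same 1.33% of all genes. Among those with the smallest unadjusted p were Zbtb4, a reader of methylated DNA (0.51 ± 0.35), Gadd45b, a stress gene linked to demethylation (0.44 ± 0.32), and Trdmt1, a transfer RNA methyltransferase once named Dnmt2 (0.30 ± 0.31). Uhrf1 differed by 0.014 and the remodeller gene Hells by 0.0075. Dnmt3l, a catalytically inactive partner of Dnmt3a, was above background on 0 of 6 arrays.

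Of 9 PRC2 subunits tested, 6 read higher and 3 lower (median 0.015), and none passed. Phf1, an accessory subunit, differed by -0.38 ± 0.32 and was lower in NIKaly/aly in each of the 3 pairs. The core subunit Eed differed by 0.086 ± 0.30, the histone-binding subunit Rbbp7 by 0.12 ± 0.36, and the accessory subunit Aebp2 by 0.10 ± 0.38. Suz12, the other core subunit, differed by 0.0063 ± 0.25. PRC1 subunits split into 14 higher and 10 lower of 24 (median 0.052). Rybp, a variant PRC1 subunit, differed by 0.33 ± 0.27, the ubiquitin ligase gene Rnf2 by 0.27 ± 0.25 and Pcgf1 by 0.37 ± 0.34.

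**Figure D4:**
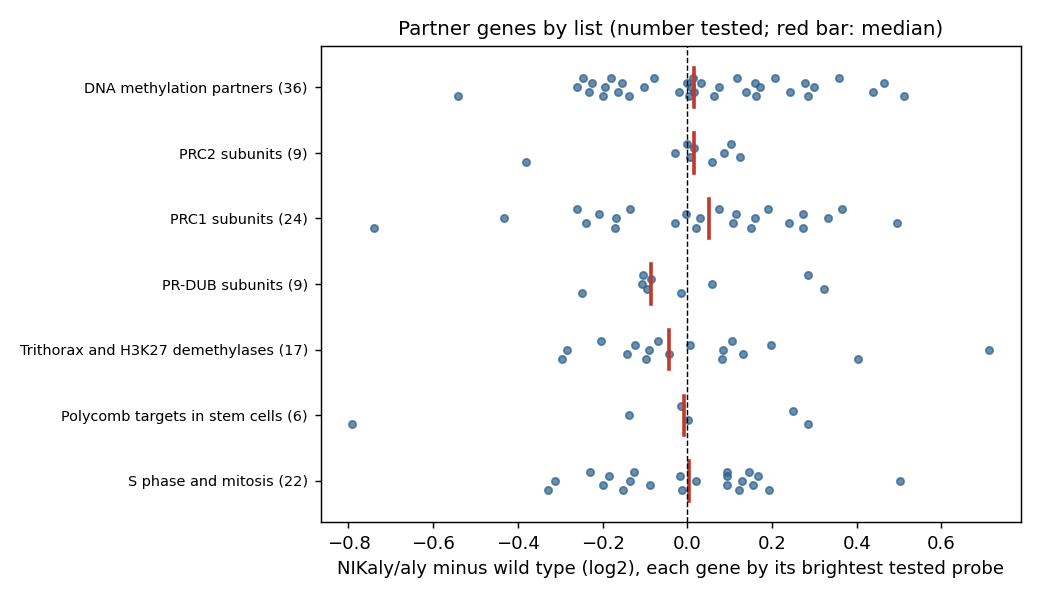
NIKaly/aly minus wild type on the log2 scale for the tested genes of 7 lists, each gene by its brightest tested probe, with the median of each list as a red bar. Medians lie between -0.087 and 0.052, and no gene passed the threshold.

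Of 9 tested genes of the deubiquitinase group around Asxl1, 3 read higher and 6 lower (median -0.087). Bap1, the deubiquitinase itself, differed by -0.096 ± 0.27, Asxl2 by -0.25 ± 0.37, Mbd5 by 0.32 ± 0.40 and Usp16, another H2A deubiquitinase gene, by 0.28 ± 0.30. Genes that oppose Polycomb gave 8 higher and 9 lower of 17 (median -0.043). Smarca4, the ATPase of the BAF chromatin remodeller, read 7.48, 7.19 and 7.05 in NIKaly/aly, against 6.72, 6.36 and 6.51 in wild type. All 3 mutant samples were above all 3 wild-type samples. It was the 1 gene of the 17 without overlap, where 716 of the 15684 genes tested had none. The difference of 0.71 ± 0.32 had an unadjusted p = 0.056 and an adjusted p = 0.99998 in limma. The H3K27 demethylase gene Kdm6b differed by 0.40 ± 0.66, Wbp7, now Kmt2b, an H3K4 methyltransferase, by -0.28 ± 0.34 and Men1, its partner, by -0.20 ± 0.35.

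Of 12 genes described as held down by Bmi1 or Ezh2 in stem cells, 6 were tested, 3 reading higher and 3 lower (median -0.0071). Cdkn2a and Cdkn2b, cell-cycle inhibitor genes and textbook Bmi1 targets, were not well above background on any of the 6 arrays by either of their 2 probes each. Hmga2, a chromatin protein of fetal stem cells, read -0.38, -0.78 and 0.48 in NIKaly/aly and 0.13, 1.27 and 0.29 in wild type. Samples 3 and 4 differed by -2.05 and samples 5 and 6 by 0.19, and the difference of -0.79 ± 0.45 did not pass. Cdkn1c, another cell-cycle inhibitor gene, differed by 0.25 ± 0.31, Fbxo5 by 0.28 ± 0.27 and Ebf1, a B-lineage factor, by -0.14 ± 0.44. The S phase and mitosis genes, which include many active when Dnmt1 is, had a genotype median of 0.0028, with 11 higher and 11 lower, led by Tyms (0.50 ± 0.67), Cdc6 (-0.31 ± 0.49), Plk1 (-0.33 ± 0.53) and Ccnb2 (0.19 ± 0.35).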

How the data were processed

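Each of the 6 samples was hybridised to 1 one-colour Cy3 array. The deposited intensity values came from version 10.7.3.1 of Agilent's Feature Extraction software, and probe positions are on mm9, both per the file headers; the processed signal is background-subtracted, with a surrogate for low values. The authors' deposited table holds a ratio, each array's processed signal over its median for non-control spots (largest relative deviation 1.9e-06, checked on probes with 1 spot), and served as an alternative.

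The log2 processed signal was set against each array's 75th percentile. Control and outlier-flagged spots were left out, none was saturated, and spots of 1 probe were averaged. Probes well above background on at least 3 arrays were tested (21220 with complete values) with limma 3.58.1 in R 4.3.3 (genotype only, intensity trend, two-sided, 4 residual degrees of freedom, Benjamini-Hochberg threshold 0.05). The fit was run on simulated data with planted changes larger than any member difference and noise independent between arrays. That run does not show whether differences of the members' size would be found. Genes in lists were taken by their brightest tested probe. Named genes were all members and, from each list, up to 4 genes with the smallest unadjusted p; others were picked as examples after their values were seen, and a few genes the rule names are not reported here. Alternatives were scaling, background correction, filter, probe choice, blocks, array weights and leaving out arrays. All 10 members matched the RefSeq gene table by symbol. Members and lists were chosen with earlier results of these data known. The number of arrays limits the precision.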

Additional observations from a re-analysis of the deposited data

How the results depend on the processing

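No member probe passed under 21 of 22 alternatives; with a random block for array column (each column held 1 genotype) 1 did, Bmi1 probe 1, with 1876 probes and 6 genes of the pathway lists. The count of probes past the threshold, 0 with all arrays (271 at an unadjusted p under 0.05 in limma), was 5 with median scaling and with the authors' table, 1 with normexp, 12 without a filter, 2 with the consecutive pairs as a block, and 0 to 1 leaving out 1 array (1 without wild type 3). Both Bmi1 probes, Ezh1 probes 1 and 2 and Asxl1 kept their direction in all alternatives that gave a value (Bmi1 probe 1 from 0.14 to 0.51 and probe 2 from 0.048 to 0.30, Ezh1 probe 1 from -0.25 to -0.017 and probe 2 from -0.32 to -0.068, Asxl1 from -0.46 to -0.14). The other differences, all uncalled, changed sign somewhere, and the cause was not tested. With median scaling and the authors' table, Dnmt3b probe 2 was 0.081 and Tet2 probe 3 was 0.094. Tet2 probe 3 was 0.0034 with the percentile over probes above background on all arrays and 0.046 with quantile normalization. Dnmt3b probe 2 was 0.045 with normexp, and Tet1 by the mean of its probes was -0.027. Array weights gave 0.034 for Dnmt3a, -0.14 for Dnmt3b probe 3 and 0.069 for Tet2 probe 3. Within slide row 1, Dnmt3a was 0.039, Dnmt3b probe 3 -0.041, Tet1 probe 2 -0.014, Tet2 probe 1 -0.019 and Ezh1 probe 3 0.46. With array column as a random block, Dnmt3b probe 2 was 0.047 and Tet1 probe 1 -0.072. Without samples 1 and 2, Dnmt3b probes 1 and 3 were -0.0065 and -0.032, Tet2 probe 3 was 0.043, Tet3 probes 1 and 3 were 0.27 and 0.089, and Ezh2 was -0.063. Leaving out 1 array gave -0.067 to 0.29 for Dnmt1, -0.043 to 0.11, -0.12 to 0.075 and -0.040 to 0.14 for Dnmt3b probes 1 to 3, -0.38 to 0.37, -0.19 to 0.48 and -0.47 to 0.14 for Tet1 probes 1 to 3, -0.24 to 0.57, -0.035 to 0.65 and -0.37 to 0.41 for Tet2 probes 1 to 3, -1.12 to 0.59, -1.23 to 0.11 and -0.54 to 0.21 for Tet3 probes 1 to 3 and -0.68 to 0.21 for Ezh1 probe 3. Signal over background limits Tet3 and Ezh1 probe 3, which were above background on 3 or 4 arrays. The genotypes share no replicate number in the labels. The block of consecutive numbers was formed from the sample numbers in the titles, and no label states that these samples are paired. It was used with earlier results of these data known.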
